A study of Mus musculus with 12 samples.

Results

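The tRNA-Val fragments are the short RNAs that match a mature nuclear tRNA for valine, and they are described here for the 3 isoacceptors that were listed, mature-tRNA-Val-AAC, mature-tRNA-Val-CAC and mature-tRNA-Val-TAC. They were taken by name from the 51 mature tRNA isoacceptors listed in all 12 small RNA libraries. The reads of each isoacceptor were divided into tRF5, which begin at the 5′ end of the tRNA, tRF3, which end at its 3′ end or in the CCA tail, and other, the remaining reads. A tRF is one isoacceptor in one of these 3 classes, which gives 9 tRNA-Val tRFs. Sperm were released from the epididymis of C57BL6/J mice that had received a control diet (CD, 16% of the energy from fat by the labels) or a high fat diet (HFD, 69% by the labels and a lower share by the methods) for 7 weeks from 4 weeks of age. Each of the 3 libraries per diet pooled the sperm of 3 mice. The other libraries came from TM4, a mouse Sertoli cell line, with 2 libraries each of non-treated cells (Ctrl), cells given 10 µM Compound C (CC), an AMPK inhibitor, for 12 h, and cells that overexpressed Ang, the gene of the ribonuclease angiogenin, from a plasmid (Ang OE). The 2 Ctrl libraries are the control of both treatments, no library of cells with an empty plasmid was analysed here, and nothing in the labels says that TM4 replicates came from separate cultures, so p-values for TM4 measure the spread between these libraries, which may be technical.

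A tRNA folds into a cloverleaf whose anticodon loop lies near the middle of the molecule, and the enzyme that completes the tRNA adds the bases CCA to its 3′ end. Angiogenin cuts tRNAs in the anticodon loop, which leaves a 5′ part and a 3′ part, and such 5′ parts are among the abundant small RNAs of mature sperm. The 3 valine isoacceptors differ in the first base of the anticodon, which pairs with the last base of a valine codon.

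The sequences show which of these fragments a short read can tell apart. A search of the mouse genome build GRCm39 for 73-base tRNA folds with a valine anticodon found 18 genes, 7 with AAC, 8 with CAC and 3 with TAC, where RefSeq lists 8, 11 and 3 in the build GRCm38. By the GENCODE annotation 11 of the 18 lie between genes and 7 in introns of long non-coding RNAs. Shown is the sequence carried by the most CAC genes (5 of 8), the AAC sequence identical to it outside the anticodon (2 of 7) and the TAC sequence (3 of 3), each from 5′ to 3′ with the anticodon in capitals.
Val-CAC, chr1:170939012-170939084, plus strand: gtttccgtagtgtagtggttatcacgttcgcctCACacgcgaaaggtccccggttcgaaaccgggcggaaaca
Val-AAC, chr3:30655419-30655491, plus strand: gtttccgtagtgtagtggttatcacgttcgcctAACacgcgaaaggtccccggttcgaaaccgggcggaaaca
Val-TAC, chr19:11989295-11989367, plus strand: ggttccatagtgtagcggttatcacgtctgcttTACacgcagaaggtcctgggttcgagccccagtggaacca
These 3 genes lie between annotated genes. Counted from 1 at the 5′ end, the TAC sequence differs from the CAC sequence at 17 of its 73 bases. In the first 33 bases, before the anticodon, the differences are T2G, G7A, T16C, T28C, C29T and C32T. No AAC or CAC gene shared more than the first base with TAC before a difference, whereas the closest AAC and CAC genes were identical over those 33 bases.

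Over the 12 libraries, clean reads without rRNA numbered 23.0 to 28.0 M in sperm and 47.6 to 59.6 M in TM4 (M, 1e+06 reads; RPM, the level used throughout, is reads per M of them), and 60593 to 878683 of them were tRNA-Val reads. Replicates spread far beyond the error of counting reads, the only error this measure covers. The chi-square between any pair over all tRFs was 306 to 2461 times its degrees of freedom. The rRNA share of clean reads was 16.5% to 25.2% for the CD and 24.7% to 32.9% for the HFD. Lists of miRNAs that mark other cells were summed in each library, and every listed miRNA was detected. The white blood list (4 miRNAs) separated the diets, at 285 to 337 RPM for CD and 423 to 719 RPM for HFD, whereas the epithelial list (5 miRNAs, 4484 to 5090 and 4480 to 7580 RPM), the germ cell list (6 miRNAs, 1515 to 4024 and 1670 to 2054 RPM), the red blood list (3 miRNAs, 6749 to 8824 and 7246 to 13352 RPM), the smooth muscle list (2 miRNAs, 16155 to 26304 and 15332 to 29689 RPM) and the mesenchymal list (4 miRNAs, 3677 to 4569 and 3327 to 6027 RPM) overlapped. In TM4 the germ cell list summed to 1195 to 1334 RPM in Ang OE, against 591 to 609 RPM in Ctrl and 550 to 595 RPM in CC. The smooth muscle and mesenchymal lists were also higher in both Ang OE libraries, at 61711 to 79792 and 77853 to 79439 RPM against 29770 to 42667 and 43603 to 48977 RPM over Ctrl and CC. The red blood list was at 806 to 822 RPM in Ctrl and at 547 to 584 RPM over CC and Ang OE, and the white blood list at 713 to 761 RPM in Ctrl, 822 to 877 RPM with CC and 748 to 913 RPM with Ang OE. The epithelial list was at 0.719 to 1.55 RPM in TM4. The part of these values in any result given here was not tested, and in such bulk libraries fewer cells of a type and less RNA per cell cannot be told apart.

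tRNA-Val gave 14.8%, 14.1% and 19.1% of all mature tRNA reads in the CD libraries and 13.9%, 12.3% and 14.9% in the HFD libraries. The share was 16.0% and 9.93% for Ctrl, 6.31% and 4.76% for CC and 18.7% and 22.4% for Ang OE. The diets overlapped. Such shares of the other tRNA families were not analysed here, so the TM4 values have no background. By mean RPM, the tRF5 of Val-CAC ranked 3 of 153 tRFs with the CD and 4 with the HFD, and 4, 17 and 2 in Ctrl, CC and Ang OE cells. The tRF5 of Val-AAC ranked 5, 8, 8, 26 and 4 in the same order, and that of Val-TAC between 95 and 110 in all 5 groups.

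**Figure D1:**
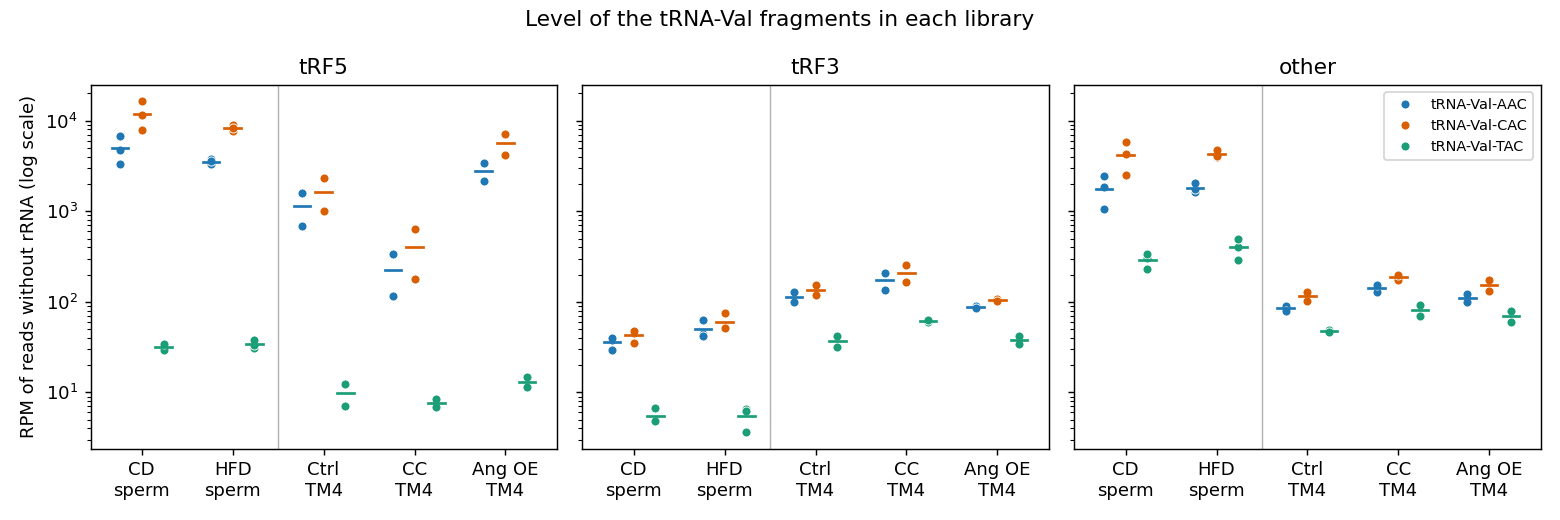
RPM of the 9 tRNA-Val tRFs (reads per M clean reads without rRNA, log scale), a panel for each class, with a point per library and a bar at the group mean. The tRF5 of Val-CAC and Val-AAC lie between 116 and 16302 RPM and spread widely between groups, and the tRF5 of Val-TAC lies between 6.91 and 37.8 RPM.

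Val-TAC differed from Val-AAC and Val-CAC in how its reads were divided among the classes. Reads classed as other are a remainder, so their position in the tRNA is not known here. In the CD libraries tRF5 made up 73.9% ± 1.5 (SD, n = 3) of Val-CAC reads and 73.5% ± 1.52 of Val-AAC reads, but 10.0% ± 2.53 of Val-TAC reads. Reads classed as other made up 88.4% ± 2.57 of Val-TAC reads for CD and 90.7% ± 1.89 for HFD, against 25.8% ± 1.60 and 33.7% ± 3.12 of Val-CAC reads. In Ctrl cells other made up 50.5% ± 2.65 (SD, n = 2) of Val-TAC reads and tRF3 made up 39.2% ± 6.78, while tRF5 stood at 10.3% ± 4.13. The tRF3 reads nearly all carried the CCA tail: for Val-AAC in CD sperm, 34.2 ± 5.38 RPM ended in CCA and 1.47 ± 0.138 RPM ended at the 3′ end without it. In no library did tRF5 reach the share of other among Val-TAC reads, and in every sperm, Ctrl and Ang OE library tRF5 was the main class of Val-AAC and Val-CAC.

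The ratio of Val-CAC to Val-AAC reads depended on the class. For tRF3 it was between 1.200 and 1.205 in all 12 libraries. In the genes found in GRCm39, the last 20 bases are the same in 6 Val-CAC and 5 Val-AAC genes, a ratio of 1.2, so a read of this 3′ end cannot be told apart between them, and the deposited values of such reads are divided among the matching entries. The stretch is shown here because it is the end shared by both isoacceptors, with the end of Val-TAC beside it.
Val-CAC and Val-AAC, last 20 bases: ttcgaaaccgggcggaaaca
Val-TAC, last 20 bases: ttcgagccccagtggaacca
The tRF3 values of Val-AAC and Val-CAC are therefore not separate measurements. For tRF5 the ratio was 2.32 to 2.38 in the 6 sperm libraries, 1.44 and 1.46 for Ctrl, 1.56 and 1.88 for CC and 1.93 and 2.07 for Ang OE. The first 33 bases occur in 2 main forms, which differ by T20C and T27C.
5′ form in 5 Val-CAC and 2 Val-AAC genes: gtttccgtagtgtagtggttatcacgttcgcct
5′ form in 1 Val-CAC and 3 Val-AAC genes: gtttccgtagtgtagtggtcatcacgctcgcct
Among the genes found, Val-CAC to Val-AAC stands at 2.5 for the former and 0.33 for the latter, and the tRF5 ratios of all libraries lay between these values. Read sequences are not in the deposited values, so the form each tRF5 read carried was not analysed here. Reads classed as other had a ratio of 2.31 to 2.38 in sperm and 1.29 to 1.45 in TM4. Within sperm the tRF5 ratio did not separate the diets (difference of the log2 ratio −0.02, exact 2-sided permutation p = 0.4).

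**Figure D2:**
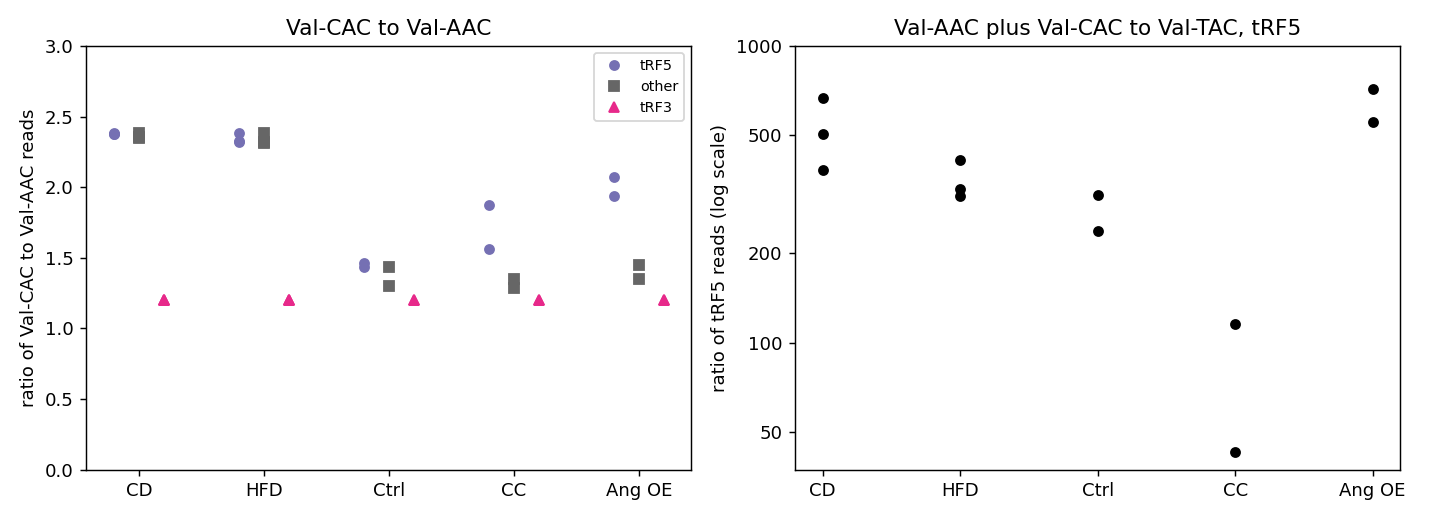
Left, ratio of Val-CAC to Val-AAC reads in each library for tRF5, other and tRF3. Right, ratio of the tRF5 reads of Val-AAC plus Val-CAC to those of Val-TAC on a log scale, with a point per library. The tRF3 ratio sits at 1.2 in every group, the tRF5 ratio lies above 2.3 in sperm and between 1.44 and 2.07 in TM4, and the ratio to Val-TAC runs from 42.9 in CC to 717 in Ang OE.

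The comparison of HFD with CD asks whether the diet of the males alters these fragments in their sperm. The tRF5 of Val-CAC stood at 11421, 7809 and 16302 RPM in the CD libraries and at 8974, 7696 and 8235 RPM in the HFD libraries. The CD libraries spread more than the HFD libraries, and CD replicate 2 lay within the HFD range. The log2 fold change was −0.51 (standard error, SE, 0.30, adjusted p = 0.263 by edgeR's quasi-likelihood test over all tRFs tested), and that of Val-AAC −0.49 (SE 0.32, adjusted p = 0.271). For Val-AAC the libraries stood at 4792, 3290 and 6850 RPM on the CD and at 3764, 3313 and 3544 RPM on the HFD, so the diets overlapped here too. Val-TAC tRF5 stood at 32.2, 29.0 and 34.7 RPM on the CD and at 30.9, 33.3 and 37.8 RPM on the HFD, with a log2 fold change of 0.09 (SE 0.30, adjusted p = 0.807) that TMM, DESeq2's own size factors and all clean reads as denominator turned to −0.46, −0.36 and −0.05.

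Of the 9 tRNA-Val tRFs, 0 passed an adjusted p of 0.05 by edgeR in the diet comparison, and none passed 0.05 before adjustment (0 of 9). Among all tRFs tested the share called was 0%. At p under 0.05 before adjustment with a fold change over 1.5, 16.2% of all tRFs were higher and 0% lower on the HFD, and none of the 9 was among them. DESeq2 also called 0 of the 9. The median log2 fold change was 0.04 over the 9 tRFs and 0.44 over all tRFs tested, and Val-CAC tRF5 had the lowest value of all. TMM and DESeq2's own size factors moved the median of all tRFs to −0.06 and 0.04, and the log2 fold changes of Val-CAC and Val-AAC tRF5 ranged from −1.11 to −0.41 and from −1.09 to −0.39 over the alternatives with all libraries. Without CD replicate 2, both were called, at −0.74 and −0.72 (adjusted p = 0.00756 and 0.0241 by edgeR), when 18.3% of all tRFs were called, against 0% with all libraries. Without CD replicate 3, the library with the most tRF5, they were −0.21 and −0.19.

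The tRF3 and other fragments had log2 fold changes near or above 0 between the diets, all 6 of them below 0 under TMM. Val-CAC other stood at 4294, 2494 and 5796 RPM on the CD and at 3930, 4053 and 4772 RPM on the HFD, which overlapped, with a log2 fold change of 0.02 (SE 0.32, adjusted p = 0.972 by edgeR), and Val-AAC other had 0.04 (SE 0.33, adjusted p = 0.943 by edgeR). Both were lowest in CD replicate 2 and highest in CD replicate 3, as the tRF5 were within the CD group, and over the 6 libraries their log2(RPM + 1) had r = 0.67 and 0.64 with that of Val-CAC tRF5, as a description. Val-TAC tRF3 stood at 3.65 to 6.75 RPM over both diets, with a log2 fold change of −0.0045 (SE 0.32, adjusted p = 0.996 by edgeR). Val-CAC tRF3 stood at 45, 48.1 and 35.4 RPM on the CD and at 52.6, 50.9 and 75.9 RPM on the HFD. The log2 fold change of Val-CAC tRF3 was 0.48 (SE 0.31, adjusted p = 0.271 by edgeR), close to the median of all tRFs, and −0.02 under TMM. The Val-TAC fragments classed as other stood at 303, 339 and 233 RPM on the CD and at 289, 406 and 500 RPM on the HFD. They overlapped, with a log2 fold change of 0.45 (SE 0.35, adjusted p = 0.365 by edgeR) that was −0.04 under TMM.

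Within an isoacceptor the share of tRF5 needs no library size, and here the diets separated for Val-CAC and Val-AAC. The libraries were selected by size, per the methods, and the part of this selection in the shares was not tested. For Val-CAC the share of tRF5 was 72.5%, 75.4% and 73.7% in the CD libraries and 69.3%, 65.2% and 62.9% in the HFD libraries. For Val-AAC it was 71.9%, 75.0% and 73.6% on the CD and 69.0%, 64.9% and 62.5% on the HFD. Each HFD library lay below each CD library, with a mean difference of −8.05 percentage points for Val-CAC and −8.04 for Val-AAC (exact 2-sided permutation p = 0.1 for each). This is the smallest p that 3 libraries against 3 can give, so the design cannot pass 0.05. Since Val-AAC and Val-CAC share most of their tRF5 sequence, these are not separate observations. Val-TAC had shares of 9.47%, 7.74% and 12.7% on the CD and 9.47%, 7.53% and 6.94% on the HFD, which overlapped (difference −2.0 percentage points, exact permutation p = 0.3). Among the 49 isoacceptors with at least 100 reads in every sperm library, all HFD libraries lay below all CD libraries in 4.08%, which are Val-AAC and Val-CAC themselves. In 2 others, tRNA-Arg-TCG and tRNA-Trp-CCA, all HFD libraries lay above all CD libraries. The median difference was −0.50 percentage points. The size of the difference was not particular to tRNA-Val, since tRNA-Lys-CTT had −8.12 percentage points, tRNA-Glu-TTC −5.14, tRNA-Glu-CTC −4.90 and tRNA-Gly-GCC −4.37, with overlapping diets in these 4. Reads classed as other took up the difference, with shares 7.88 percentage points higher for Val-CAC and 7.72 for Val-AAC on the HFD (exact permutation p = 0.1 for each).

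**Figure D3:**
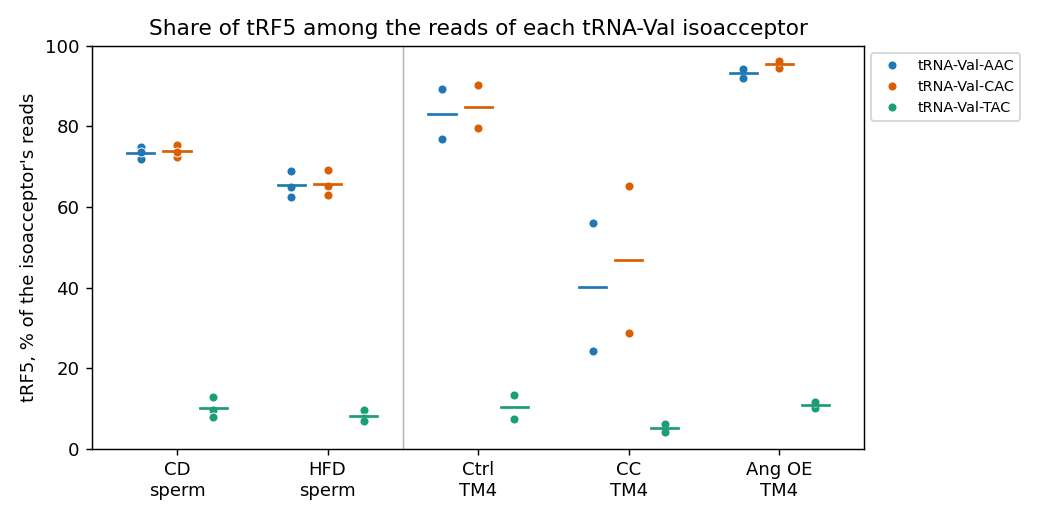
Share of tRF5 among the reads of each tRNA-Val isoacceptor, in % (0 to 100), with a point per library and a bar at the group mean. For Val-AAC and Val-CAC the HFD libraries lie between 62.5% and 69.3%, under the CD libraries at 71.9% to 75.4%, the CC libraries reach down to 24.2%, and Val-TAC is at most 13.3% in any library.

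The comparison of CC with Ctrl asks how the fragments differ in Sertoli cells given the AMPK inhibitor. The labels and methods name no cells given solvent alone. The tRF5 of Val-AAC stood at 1577 and 693 RPM in Ctrl and at 338 and 116 RPM in CC. The log2 fold change was −2.32 (SE 0.69, adjusted p = 0.136 by edgeR). Val-CAC tRF5 stood at 2303 and 996 RPM in Ctrl and at 634 and 181 RPM in CC, with a log2 fold change of −2.02 (SE 0.77, adjusted p = 0.154 by edgeR). Val-TAC tRF5 stood at 12.3 and 7.13 RPM in Ctrl and at 8.43 and 6.91 RPM in CC, which overlapped, with a log2 fold change of −0.34 (SE 0.32, adjusted p = 0.444). Replicate 2 was the lower library of its group for all 3 tRF5, in Ctrl and in CC.

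The tRF3 and the fragments classed as other lay on the opposite side for all 3 isoacceptors. Val-TAC tRF3 stood at 32.1 and 42.4 RPM in Ctrl and at 59.4 and 63.0 RPM in CC (log2 fold change 0.72, SE 0.23, adjusted p = 0.146 by edgeR). The other fragments of Val-TAC stood at 48.7 and 46.8 RPM in Ctrl and at 69.9 and 93.1 RPM in CC (log2 fold change 0.77, SE 0.25, adjusted p = 0.146). The log2 fold changes of the remaining 4 tRF3 and other tRFs lay between 0.61 and 0.75, against a median of 0.43 over all tRFs tested.

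After adjustment edgeR called 0 of the 9 tRNA-Val tRFs between CC and Ctrl, against 0.699% of all tRFs, and 6 of the 9 had an unadjusted p under 0.05. At p under 0.05 before adjustment with a fold change over 1.5, 4 of the 9 were higher, where 21.7% of all tRFs were, and 2 were lower, where 4.2% of all tRFs were. The 2 lower tRFs are the tRF5 of Val-AAC and Val-CAC, which share most of their sequence, and Val-AAC had the lowest log2 fold change of all tRFs tested. DESeq2 called both at an adjusted p under 0.05, with the same library sizes and with its own, where it called 4.2% of all tRFs. With the replicate number as batch in ComBat-seq, 8 of the 9 were called, the 2 tRF5 lower and 6 higher, and so were 35% of all tRFs. Without CC replicate 1, 6 were called, 4 higher and 2 lower, with 28.7% of all tRFs, and the log2 fold changes of Val-CAC and Val-AAC tRF5 were −3.19 and −3.29. They were −1.29 and −1.61 without Ctrl replicate 1 and −1.38 and −1.75 without CC replicate 2, with 0 called in both settings. Among the lists of other families, the 41 tRF5 had a median log2 fold change of −0.40 with 1 called higher and 0 lower, and the 46 tRF3 a median of 0.58 with 0 called. The tRF5 of tRNA-Gly and tRNA-Glu, the other abundant families of sperm, had log2 fold changes of −1.37 to −0.36, with 0 of 6 called.

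In shares, tRF5 made up 89.3% and 77% of Val-AAC reads in Ctrl and 55.9% and 24.2% in CC. For Val-CAC the shares were 90.2% and 79.5% in Ctrl and 65.1% and 28.7% in CC, and for Val-TAC 13.3% and 7.40% in Ctrl and 6.12% and 4.24% in CC. Both CC libraries lay below both Ctrl libraries for each isoacceptor, as they did in 36% of the 50 isoacceptors with at least 100 reads in every TM4 library. Shares in TM4 were not tested, because the smallest exact p that 2 libraries per group allow is 0.33 by 2-sided permutation.

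The comparison of Ang OE with Ctrl asks what more angiogenin does to them, and it uses the same Ctrl libraries. Val-CAC tRF5 stood at 4165 and 7088 RPM in Ang OE and at 2303 and 996 RPM in Ctrl, with a log2 fold change of 1.77 (SE 0.76, adjusted p = 0.138 by edgeR). Val-AAC tRF5 stood at 2153 and 3425 RPM in Ang OE and at 1577 and 693 RPM in Ctrl, with a log2 fold change of 1.30 (SE 0.66, adjusted p = 0.183). With mature tRNA reads as library size the 2 log2 fold changes were 1.01 and 0.54. They were 2.50 and 2.01 without Ctrl replicate 1, 1.29 and 0.82 without Ctrl replicate 2, 2.10 and 1.59 without Ang OE replicate 1 and 1.34 and 0.92 without Ang OE replicate 2, and neither was called in any of these 5 settings. Val-TAC tRF5 stood at 11.4 and 14.7 RPM, which overlapped with Ctrl, with a log2 fold change of 0.42 (SE 0.31, adjusted p = 0.352) that was −0.33 with mature tRNA reads as library size. The tRF3 of Val-CAC stood at 107 and 103 RPM in Ang OE and at 120 and 153 RPM in Ctrl (log2 fold change −0.38, SE 0.30, adjusted p = 0.366). With mature tRNA reads as library size it was −1.15 and that of Val-AAC tRF3 −1.16, both called lower (adjusted p = 0.0231 and 0.0216 by edgeR), a setting that called 48.3% of all tRFs. Those of Val-TAC stood at 41.8 and 34.6 RPM in Ang OE, within the range of Ctrl.

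By edgeR, 0 of the 9 were called between Ang OE and Ctrl after adjustment, where 10.5% of all tRFs were, and 0 had an unadjusted p under 0.05. At p under 0.05 before adjustment with a fold change over 1.5, 16.8% of all tRFs were higher and 18.2% lower, and none of the 9 was in either count. DESeq2 called Val-CAC tRF5 higher with the same library sizes, and with its own size factors it called that and the other fragments of Val-TAC, as did edgeR after ComBat-seq. These settings called 22.4%, 37.8% and 44.1% of all tRFs. Among the other families 4 of 41 tRF5 were called higher and 0 lower, and 8 of 46 tRF3 lower and 0 higher. The share of tRF5 was 92.0% and 94.3% of Val-AAC reads and 94.5% and 96.2% of Val-CAC reads in Ang OE, above both Ctrl libraries, which held for 66% of the 50 isoacceptors. For Val-TAC it was 10.0% and 11.5%, between the Ctrl libraries.

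The larger log2 fold changes of the tRF5 were those between Ang OE and CC. The tRF5 of Val-CAC was 13.8-fold higher in Ang OE than in CC (log2 fold change 3.79, SE 0.83, adjusted p = 0.0104 by edgeR), and that of Val-AAC 12.3-fold higher (log2 fold change 3.62, SE 0.73, adjusted p = 0.00964). The tRF3 were lower in Ang OE, with log2 fold changes of −0.99 for Val-AAC and for Val-CAC (adjusted p = 0.0236 and 0.0261 by edgeR) and −0.68 for Val-TAC (adjusted p = 0.0398 by edgeR). Val-TAC tRF5 had a log2 fold change of 0.76 (SE 0.32, adjusted p = 0.0765), which ran from 0.0884 with mature tRNA reads as library size to 1.15 and 1.16, both called, under DESeq2's own size factors and TMM.

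Thus 5 of the 9 were called between Ang OE and CC, 2 higher and 3 lower, where 51.7% of all tRFs were called. The tRF3 of Val-AAC and Val-CAC are not separate measurements. With these 2 isoacceptors added together, 3 were called, and 72 of all tRFs. At p under 0.05 before adjustment with a fold change over 1.5, 3 of the 9 were higher and 3 lower, against 15.4% and 41.3% of all tRFs. The called share of the 9 is near that of all tRFs, and the median log2 fold change was −0.28 over the 9 and −0.38 over all tRFs. The tRF5 of Val-CAC and Val-AAC stayed called under each of the 15 alternatives with all libraries and each of the 4 with a library left out, with log2 fold changes from 3.09 to 4.96 and from 2.93 to 4.59, and Val-CAC had the highest value of all tRFs. None of the 3 tRF3 was called under TMM or DESeq2's own size factors, which called 38.5% and 52.4% of all tRFs. The tRF3 calls were also lost without CC replicate 2, Ang OE replicate 1 or Ang OE replicate 2, where only the 2 tRF5 of the 9 were called, with 33.8%, 30.3% and 39.7% of all tRFs. Of the tRF5 of other families, 14 of 41 were called higher and 3 lower, with a median log2 fold change of 1.00, and 5 of the 6 tRF5 of tRNA-Gly and tRNA-Glu were called higher. Of their tRF3, 35 of 46 were called lower and 0 higher. The share of tRF5 was higher in both Ang OE than in both CC libraries for each tRNA-Val isoacceptor, as in 72% of the 50.

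**Figure D4:**
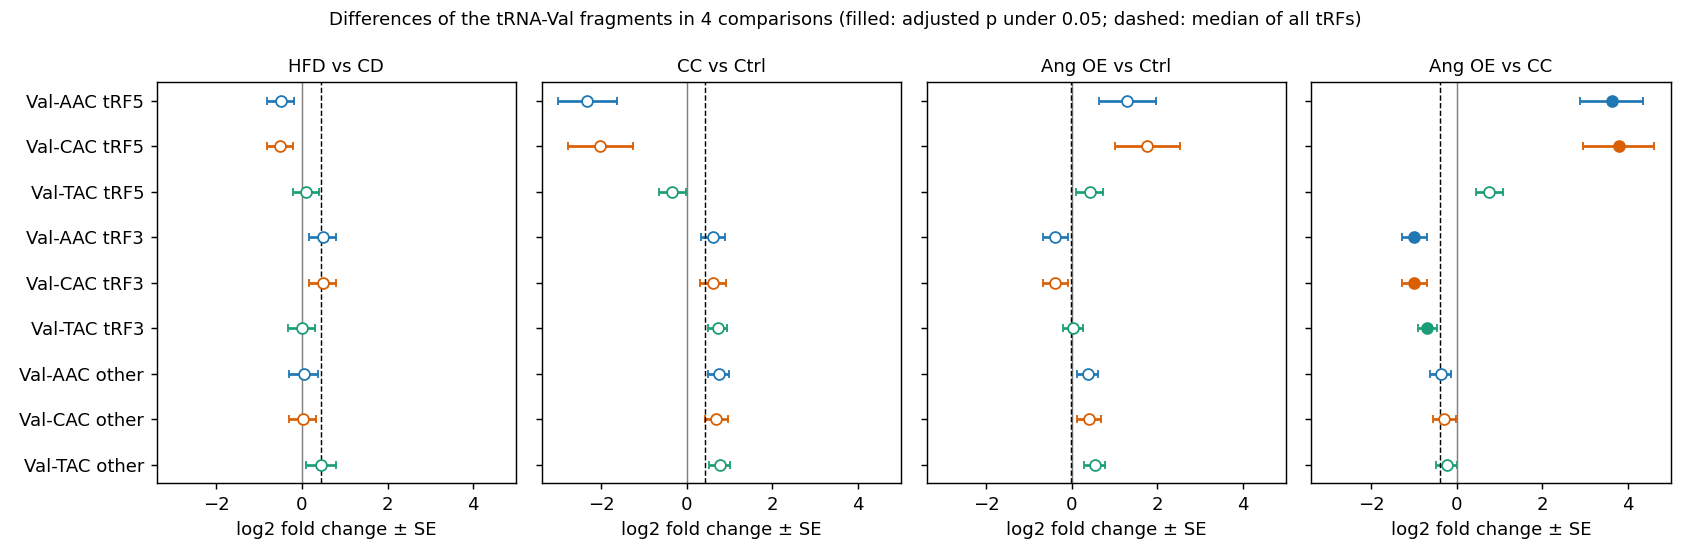
Log2 fold change of the 9 tRNA-Val tRFs in the 4 comparisons by edgeR, with the standard error as bars, filled points for an adjusted p under 0.05 and a dashed line at the median of all tRFs tested. In the TM4 comparisons the tRF5 of Val-AAC and Val-CAC lie farthest from 0, at −2.32 to 3.79, and 5 tRFs are called, all between Ang OE and CC.

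Val-TAC tRF5 had a log2 fold change nearer to 0 than the tRF5 of the other isoacceptors in each TM4 comparison, and the ratio between them needs no library size. In Ctrl the tRF5 reads of Val-AAC plus Val-CAC were 314 and 237 times those of Val-TAC. The ratio was 115 and 42.9 in CC and 556 and 717 in Ang OE, so that the 3 groups did not overlap. The log2 ratio of Val-TAC to the others was 1.96 higher in CC than in Ctrl, 1.21 lower in Ang OE than in Ctrl and 3.17 lower in Ang OE than in CC. The exact 2-sided permutation p was 0.33 for each. This is the smallest p that 2 libraries per group can give, so the test cannot pass 0.05. The difference of this log2 ratio between CC and Ctrl was 2.67 without CC replicate 1 and 1.24 without CC replicate 2, and that between Ang OE and CC −3.88 and −2.45. In sperm the ratio was 503, 382 and 668 on the CD and 412, 330 and 312 on the HFD, which overlapped (difference of the log2 ratio of Val-TAC to the others 0.53, exact permutation p = 0.2). The ratio rests on 329 to 1058 Val-TAC tRF5 reads per library.

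Across the 6 sperm libraries, the tRFs of other families whose log2(RPM + 1) followed Val-CAC tRF5 most closely were the tRF5 of tRNA-His-GTG, tRNA-Lys-CTT and tRNA-Gly-GCC (Pearson r = 0.97, 0.95 and 0.88 among 133 ranked tRFs). For Val-TAC tRF5 they were the tRF5 of tRNA-Glu-TTC and tRNA-Asp-GTC and the other fragments of tRNA-Lys-CTT (r = 0.95, 0.93 and 0.78). In the 6 TM4 libraries the closest to Val-CAC were the tRF5 of tRNA-Gly-CCC, tRNA-Lys-TTT and tRNA-Glu-CTC (r = 0.99, 0.98 and 0.98 among 134), and to Val-TAC the other fragments of tRNA-Asn-GTT and the tRF5 of tRNA-Arg-CCG and tRNA-Pro-CGG (r = 0.98, 0.95 and 0.95). These values describe libraries that share a denominator and span the groups. Between Val-CAC and Val-TAC tRF5, r was 0.22 in sperm and 0.90 in TM4.

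Fragments of the mitochondrial tRNA-Val, which is encoded in the mitochondrial genome and carries the anticodon TAC, are a separate entry and were not counted with the nuclear Val-TAC. They stood at 592, 715 and 632 RPM in CD sperm and 603, 767 and 837 RPM in HFD sperm, which overlapped. In TM4 they stood at 2758 and 2259 RPM in Ctrl cells, at 3339 and 2079 RPM after CC and at 1924 and 2001 RPM with Ang OE. Most of these TM4 reads ended in CCA, with 2182 ± 241 of 2508 ± 353 RPM (SD, n = 2) in Ctrl, and 5.14 ± 2.64 RPM came from the 5′ end.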

How the data were processed

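Small RNA was sequenced from 6 sperm and 6 TM4 libraries. Per the methods, the authors trimmed the reads (Trimmomatic 0.40, quality checked with FastQC 0.12.0), allowed a mismatch and annotated them with SPORTS1.1 against rRNA first and tRNAs next. The submitters' notes name the build mm10. The deposited values are expected counts per tRNA entry: the authors' run divided reads that match several entries, and no normalization was applied. The methods name ComBat-seq for the cell lines without naming batches, and the values carry no such adjustment.

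Genome-matched and unmatched reads were added, tRF3 joins the 3′-end and CCA rows, and other is the remainder. The denominator is clean reads minus rRNA reads. Values were rounded, and tRFs that reached 10 reads in 3 or more sperm or 2 or more TM4 libraries were tested with edgeR 4.0.16 (R 4.3.3) by the quasi-likelihood test, Benjamini-Hochberg adjusted over all tRFs tested, with the 6 TM4 libraries in 1 model. Standard errors derive from its F statistic. Shares and ratios in sperm, and the Val-TAC ratio in TM4, had exact 2-sided permutation tests (scipy 1.17.1). The script was tested on simulated data. Alternatives used DESeq2 1.42.0 and sva 3.50.0, other library sizes, filters and classes, the replicate block and each library left out. Alternatives chosen after seeing the data were Val-AAC and Val-CAC added together and the block, straight or crossed, in 2 groups alone. All 9 tRNA-Val tRFs passed the filter and are reported. From other families, the 3 tRFs closest to Val-CAC and Val-TAC tRF5 and the lists by class and of tRNA-Gly and tRNA-Glu are given. The members and lists were chosen with earlier results of these data known. tRNA genes were searched in GRCm39, whose coordinates are not those of mm10. Reads without molecular identifiers are not independent molecules. Read lengths were not analysed here.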

Additional observations from a re-analysis of the deposited data

How the results depend on the processing

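The number of tRNA-Val tRFs called depended on single libraries, the scaling, the test, the batch adjustment and the way reads were counted, and the cause was not tested. For HFD against CD it was 0 under all alternatives with all libraries and 0 to 2 with a library left out, the 2 without CD replicate 2, where 26 of all tRFs were called. For CC against Ctrl it was 2 by DESeq2 with the same library sizes, 2 by DESeq2 with its own size factors, 8 with ComBat-seq and 0 to 6 with a library left out, the 6 without CC replicate 1, while all tRFs called numbered 1 in the reported fit and 6, 6, 50 and up to 41 in these settings. For Ang OE against Ctrl it was 1 by DESeq2 with the same library sizes and 2 each by DESeq2 with its own size factors, with mature tRNA reads as library size (both lower, the tRF3 of Val-AAC and Val-CAC) and with ComBat-seq, with 32, 54, 69 and 63 of all tRFs called against 15. For Ang OE against CC it was 3 each with DESeq2's own size factors, with TMM, with genome-matched reads alone and with Val-AAC and Val-CAC added together, 8 with mature tRNA reads as library size, 2 with CCA-tailed fragments counted as other and 2 to 5 with a library left out, with 75, 55, 60, 72, 102, 52 and 43 to 85 of all tRFs called against 74. Where a library was left out of a group of 2, the lone library was assumed to vary like the other groups.

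The replicate numbers were not taken as pairs: the correlations of same-numbered libraries' deviations were 0.02, 0.21 and 0.21 in sperm, and TM4 has 2 numbers. As a replicate block in the full models they changed no call of a tRNA-Val tRF. The difference of the Val-TAC log2 ratio between the diets, 0.53, is the same with and without the block by construction. In 2 groups alone, a block gave 6 calls for CC against Ctrl (correlation 0.76), 0 for Ang OE against Ctrl and 5 for Ang OE against CC, with 48, 42 and 74 of all tRFs called. In the last 2 comparisons the correlations of same-numbered libraries were −0.22 and −0.25, and the numbers were also crossed. The crossed block gave 2 and 2 calls, with 55 and 61 of all tRFs called.

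Of 633 single tRF values under an alternative, 533 kept direction and side of the threshold and 36 changed sign, none of them called. For HFD against CD, DESeq2's own size factors gave log2 fold changes of −0.46, −0.48 and −0.36 for Val-AAC other, Val-CAC other and Val-TAC tRF5, TMM −0.56, −0.58 and −0.46 and all clean reads −0.12, −0.14 and −0.0506. TMM also gave −0.0165 and −0.0157 for the tRF3 of Val-AAC and Val-CAC and −0.0422 for Val-TAC other, and genome-matched reads 0.0684 for Val-TAC tRF3. For Ang OE against Ctrl, mature tRNA reads as library size gave −0.40, −0.37 and −0.25 for the other fragments of Val-AAC, Val-CAC and Val-TAC, −0.72 for Val-TAC tRF3 and −0.33 for Val-TAC tRF5, and genome-matched reads −0.26 for Val-TAC tRF3. For Ang OE against CC, the other fragments of Val-AAC, Val-CAC and Val-TAC had 0.0530, 0.14 and 0.20 by DESeq2 with its own size factors and 0.0454, 0.13 and 0.19 with TMM, and the former 2 had 0.0430 and 0.10 with genome-matched reads. With a library left out, Val-AAC other ranged from −0.23 to 0.33, Val-CAC other from −0.25 to 0.33 and Val-TAC tRF3 from −0.15 to 0.21 for HFD against CD, Val-TAC tRF5 from −0.69 to 0.11 for CC against Ctrl and Val-TAC tRF3 from −0.15 to 0.25 for Ang OE against Ctrl. The differences in tRF5 share between the diets and in the Val-TAC ratio kept their direction under every alternative run that could change them. Shares in TM4 were not run under alternatives. Val-TAC tRF5 rests on few reads, and 2 libraries per TM4 group limit every TM4 value.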
